A study of Rattus norvegicus with 4 samples.

Results

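Epithelial and keratin transcripts were followed in cultured neonatal rat ovaries with and without anti-Müllerian hormone (AMH). The genes were Epcam, Cdh1, Upk1b, Upk3b, Msln, Lrrn4 and the keratin genes Krt7, Krt8, Krt18 and Krt19, and every probe set that the platform annotation assigns to 1 of these symbols alone was taken. This gave 12 probe sets of 9 genes out of 31099 probe sets on the array. Upk3b had no probe set listed under its symbol and was not analysed here. Whole ovaries of rat pups (Rattus norvegicus, postnatal day 4) were cultured for 10 days with 50 ng/mL AMH in 1 group and without treatment in the other. Both groups were kept in the same insulin- and transferrin-containing medium without serum, and no strain is given in the labels. About 10 ovaries were combined for each RNA sample. Every group had 2 such pools, described as independent, with 1 array for each, so that 2 AMH arrays were set against 2 control arrays. A pool holds every cell type of the organ, and in such samples fewer cells of a type and less RNA per cell cannot be told apart.

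The ovarian surface is covered by a single layer of epithelium that is continuous with the mesothelium of the body cavity, and its cells contain keratins 7, 8, 18 and 19. Keratins of simple epithelia form filaments as pairs of a type II chain (Krt7 or Krt8) with a type I chain (Krt18 or Krt19), and pregranulosa cells of rodent ovaries also contain some of them. AMH, a TGF-beta family hormone secreted by granulosa cells of growing follicles, restrains the entry of primordial follicles into growth, and the series title gives the effect of AMH on the ovarian transcriptome at that step as its subject.

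Across the whole table, 18625 probe sets were bright enough to be tested and 3999 of them (21.5%) passed a limma adjusted p of 0.05, 1614 (8.67%) higher and 2385 (12.8%) lower in AMH-treated ovaries. Changes are differences in log2(intensity + 16), AMH minus control, given ± the standard error from limma (n = 2 arrays per group), and their median over all tested probe sets was 0.03. Of all calls, 59.6% were falls on the deposited scale, 47.9% after median centring and 98.5% after scaling to the hybridization controls, which moved the median of all tested probe sets to -0.52. The 3′/5′ intensity ratio of GAPDH, a sign of RNA or copy length, was 6.56 and 6.37 on the AMH arrays and 1.17 and 1.27 on the control arrays. That of beta-actin was 10.7 and 14.4 on the AMH arrays and 3.17 and 4.6 on the control arrays. The chip identifiers hold 2 different strings of digits and 0 of them occur in both groups. What the strings stand for is not known here. Anything they mark cannot be told apart from treatment in the results below. The part of the 3′/5′ ratio in these results was not tested.

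Of the 12 probe sets, 11 passed the filter on dim values and represented all 9 measured genes. Epcam, Cdh1 and 1 of 3 probe sets of Lrrn4 were lower in AMH-treated ovaries, and Upk1b was higher. The other 7 probe sets, among them those of all 4 keratin genes and of Msln, did not pass. The 3 falls are 27.3% of the tested probe sets, beside 12.8% of all tested probe sets, and the 1 rise is 9.09%, beside 8.67%. The median change of the 11 was -0.57. It was below 0 in 9 of them, beside 48.2% of all tested probe sets, though 3 of the 9 report the same gene, Lrrn4. In 7 probe sets both AMH arrays lay below both control arrays (31.2% of all tested probe sets did so), in 1 both lay above (32.2%), and in 3 the groups overlapped. All 11 stood clear of the filter level of 27.8 on every array, so that transcripts of the 9 genes were measurable in both groups, and levels are compared only within a probe set.

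**Figure D1:**
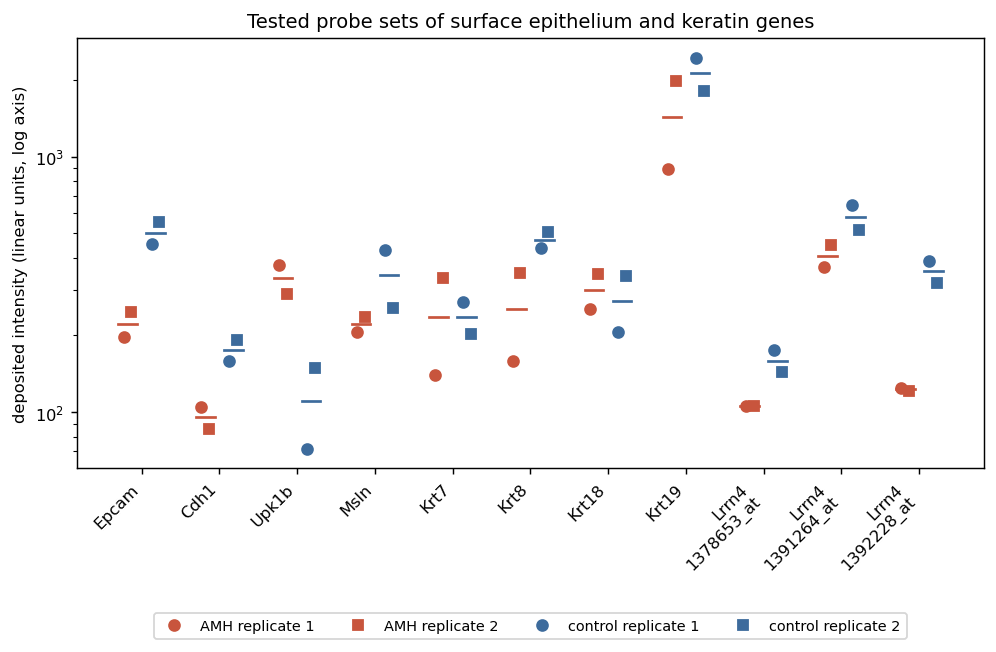
Deposited intensity (log axis) of the 11 tested probe sets on each array, with AMH arrays in red left of control arrays in blue, circles for replicate 1, squares for replicate 2 and a bar at the mean of each group. The AMH arrays lie clearly below the control arrays for Epcam, Cdh1 and Lrrn4 1392228_at and above them for Upk1b, while the AMH arrays lie far apart for Krt7, Krt8 and Krt19.

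Epcam encodes a transmembrane adhesion molecule of epithelial cells. Its intensity (probe set 1388199_at) was 196.5 and 246 on the AMH arrays, against 452.8 and 553.6 on the control arrays. The groups did not overlap, and both AMH arrays were well below both control arrays. The means were 221.2 ± 35 in AMH-treated and 503.2 ± 71.3 in control ovaries (SD, n = 2 each), a 2.27-fold fall in mean intensity and a change of -1.13 ± 0.19 (limma, adjusted p = 0.00544). Epcam passed under each of 13 alternative settings, with changes between -1.67 and -0.98.

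Cdh1 encodes E-cadherin, the calcium-dependent adhesion protein of adherens junctions, which is found on surface epithelium and also on germ cells. Probe set 1386947_at gave 104.9 and 85.4 on the AMH arrays, against 158.9 and 192.1 on the control arrays. Both AMH values lay below both control values, and the change was -0.785 ± 0.20 (limma, adjusted p = 0.0286). The call was lost without control replicate 1 (-0.91, adjusted p = 0.0927), without control replicate 2 (-0.66, adjusted p = 0.213) and with no filter on dim probe sets (adjusted p = 0.0529). A second Cdh1 probe set, 1386446_at, was at 0.6 and 6.9 on the AMH arrays and 7.6 and 1.4 on the control arrays. These values lay below the filter in both groups and gave no measurement of Cdh1.

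Of 7 tested oocyte markers, 4 were lower in AMH-treated ovaries (Gdf9, Bmp15, Sohlh1 and Ooep), beside 11.9% of all named genes, and 0 were higher. The zona pellucida genes Zp1, Zp2 and Zp3 were not called, with changes of -0.40, -0.004 and -0.002. The summed intensity of the oocyte list was 7356 and 7740 on the AMH arrays and 10380 and 9743 on the control arrays. All 7 passed the filter, which was set on the mean log2 value over all arrays. Bmp15 did so through its control values of 147.5 and 115.2. Its AMH values, 22.6 and 22.3, were dimmer than the cutoff of 27.8, and the depth of the Bmp15 fall is therefore uncertain. Of 4 tested markers of oviduct, rete and ciliated epithelium 1, Tekt1, was lower, beside 11.9% of all named genes. Tekt1, which encodes a protein of cilia and flagella, gave 74.1 and 81.5 on the AMH arrays, against 234 and 181.4 on the control arrays. Pax8, Foxj1 and Emx2 were not called, with changes of 0.11, 0.05 and -0.001. The list sums were 343.6 and 471.4 on the AMH arrays and 509.5 and 538.3 on the control arrays. Pax2, Lhx1 and Tekt4 were below the filter. The part of either list in the values of Epcam, Cdh1 and the related genes named below, such as Cd9 and Esrp1, was not tested.

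Promoter sequence was listed for 6 of the 10 genes, and Cdh1, Krt7, Krt19 and Msln had none listed. The 250 bases before the start site are shown for the 3 genes with a called probe set among the 6 (Epcam, Lrrn4 and Upk1b). They are also shown for Krt8, a keratin gene that did not pass. The sequences are from RefSeq, build GRCr8, and are written 5′ to 3′ on the strand of the gene. Capitals mark CACCTG or its reverse complement CAGGTG, the E-box form to which SNAI and ZEB factors bind.
Epcam, chr6:12649679-12649928, minus strand: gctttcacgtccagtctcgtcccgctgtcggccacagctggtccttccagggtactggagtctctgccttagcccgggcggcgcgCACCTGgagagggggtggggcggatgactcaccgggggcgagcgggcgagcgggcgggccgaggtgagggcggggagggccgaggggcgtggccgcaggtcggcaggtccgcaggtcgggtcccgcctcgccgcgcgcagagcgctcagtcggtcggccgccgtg
Krt8, chr7:135010340-135010589, minus strand: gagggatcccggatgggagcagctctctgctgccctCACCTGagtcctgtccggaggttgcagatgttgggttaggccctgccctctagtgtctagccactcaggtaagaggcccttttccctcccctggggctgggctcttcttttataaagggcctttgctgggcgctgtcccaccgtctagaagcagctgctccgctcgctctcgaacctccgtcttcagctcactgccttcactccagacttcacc
Lrrn4, chr3:140603987-140604236, minus strand: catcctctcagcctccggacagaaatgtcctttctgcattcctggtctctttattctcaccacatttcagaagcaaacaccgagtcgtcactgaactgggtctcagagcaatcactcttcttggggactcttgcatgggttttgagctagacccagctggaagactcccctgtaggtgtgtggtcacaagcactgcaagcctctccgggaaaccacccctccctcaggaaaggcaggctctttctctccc
Upk1b, chr11:75459131-75459380, plus strand: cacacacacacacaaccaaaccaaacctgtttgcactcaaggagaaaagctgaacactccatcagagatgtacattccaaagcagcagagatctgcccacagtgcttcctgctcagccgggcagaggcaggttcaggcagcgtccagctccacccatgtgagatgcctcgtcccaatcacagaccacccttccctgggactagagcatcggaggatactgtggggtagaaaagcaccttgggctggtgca

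The E-box letters were in 2 of the 6 listed windows, once in Epcam, beginning 165 bases before the start, and once in Krt8, beginning 214 bases before it. Of 27457 rat promoter windows of the same length searched on both strands, 15.6% held them. The GC box GGGCGG (or CCGCCC) was found 4 times in Epcam, whose window was 75.6% G or C. It was also in the Krt18 window, beginning 84 bases before the start, and in 32.4% of all windows. TATAAA (or TTTATA) was found in the Krt8 window, as overlapping matches beginning 106 and 104 bases before the start, and in 13.1% of all windows. The SMAD element CAGAC (or GTCTG) was in the Krt8, Krt18 and Upk1b windows and in 42.8% of all. GGCGCC, its palindromic GC-rich form, was in the Krt18 window and in 9.24% of all. These matches describe letters only, and a window without a match says nothing of a factor.

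Lrrn4 encodes a leucine-rich repeat membrane protein that is known as a marker of mesothelium. Probe set 1392228_at gave 124.5 and 121 on the AMH arrays, against 389.4 and 320.9 on the control arrays. The 2 AMH values were almost equal and far below the controls. The means of 122.8 ± 2.48 in AMH-treated and 355.1 ± 48.4 in control ovaries (SD, n = 2 each) made this the deepest fall of the 11 probe sets, at 2.89-fold in mean intensity and -1.41 ± 0.18 on the log2 scale (limma, adjusted p = 0.00194).

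The other probe sets of Lrrn4 went the same way by less. Probe set 1391264_at gave 368.7 and 449.3 on the AMH arrays, against 645.3 and 515.7 on the control arrays, a change of -0.49 ± 0.18 with a 95% interval of -0.90 to -0.07 (limma, adjusted p = 0.0885). Probe set 1378653_at gave 105.1 and 105.2 on the AMH arrays, against 174.4 and 143.5 on the control arrays, a change of -0.525 ± 0.19 with an interval of -0.97 to -0.08 (limma, adjusted p = 0.0881). In both, the groups did not overlap, yet neither passed. The mean over the 3 probe sets, an alternative chosen after the values were seen, gave -0.81 (limma, adjusted p = 0.0186). Whether the 3 probe sets differ from each other was not tested.

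Msln encodes mesothelin, a surface protein anchored in the membrane of mesothelial cells. It gave 204.7 and 235.3 on the AMH arrays, against 431.1 and 256 on the control arrays. The AMH values were close together, while control replicate 1 stood well above control replicate 2, which was little above the AMH arrays. The change was -0.57 ± 0.24 with a 95% interval of -1.12 to -0.01 and did not pass (limma, adjusted p = 0.132). It was -0.21 without control replicate 1 (adjusted p = 0.733) and -0.93 without control replicate 2, where it passed (adjusted p = 0.0452).

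Upk1b encodes uroplakin 1b, a tetraspanin of the urothelial surface that mesothelial cells also express. It gave 376.6 and 290.4 on the AMH arrays, against 71.6 and 149 on the control arrays. Each AMH array was well above each control array, and control replicate 2 was 2.08 times control replicate 1. The means were 333.5 ± 60.95 in AMH-treated and 110.3 ± 54.7 in control ovaries (SD, n = 2 each), a 3.02-fold rise in mean intensity and 1.53 ± 0.29 on the log2 scale (limma, adjusted p = 0.00987). The rise passed under all 13 alternatives, from 0.99 with hybridization control scaling to 1.99 without control replicate 2. That scaling shifts all probe sets of an array alike, so the distance of Upk1b from the median of all tested probe sets stayed at 1.5 by construction. The rise was 1.07 without control replicate 1.

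The 5 genes whose log2 values over the 4 arrays lay nearest to those of Upk1b, by Euclidean distance after centring each on its own mean, were Fos, G0s2 (an inhibitor of lipolysis), Dapk1 (a death-associated kinase), Gpx2 (a glutathione peroxidase) and Vcan (the matrix proteoglycan versican), at distances of 0.15 to 0.33. Fos encodes an immediate early transcription factor. It gave 411.8 and 325.4 on the AMH arrays, against 87.6 and 153 on the control arrays. Like Upk1b, Fos was higher on AMH replicate 1 than on AMH replicate 2 and lower on control replicate 1 than on control replicate 2. Likeness over 4 arrays is a description of these arrays only.

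**Figure D2:**
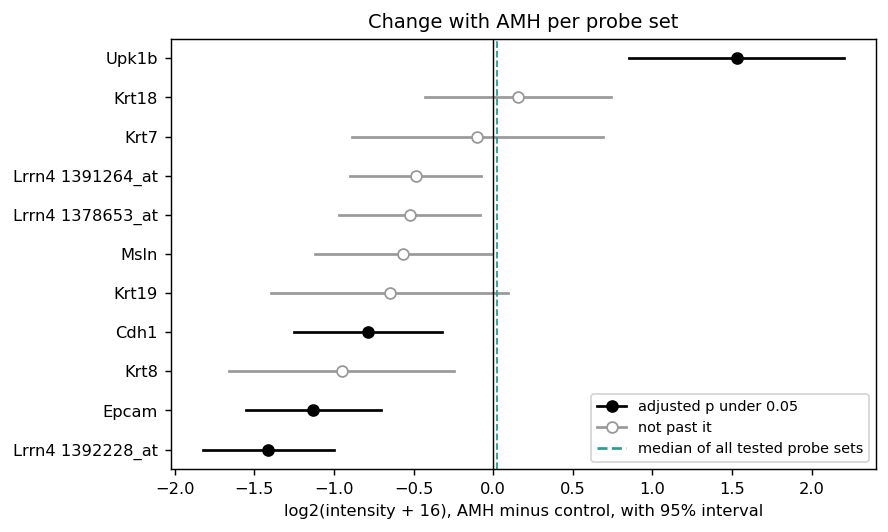
Change with AMH (AMH minus control, log2(intensity + 16)) of each tested probe set with its 95% interval, ordered from the highest to the lowest. Filled black points passed an adjusted p of 0.05, open grey points did not, and the dashed line is the median of all tested probe sets (0.03). Upk1b at 1.53 stands alone on the right, and the intervals of Krt18, Krt7 and Krt19 include 0.

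The keratin genes gave 0 calls in 4 probe sets with limma, and 1, Krt8, had an unadjusted p under 0.05. Of the 11 tested probe sets, 8 had such a p, beside 36.2% of all tested probe sets. Krt8 encodes the main type II keratin of simple epithelia. It gave 157.8 and 348.6 on the AMH arrays, against 439.1 and 504.6 on the control arrays. The groups did not overlap, but the AMH arrays were further apart than the control arrays. The change was -0.95 ± 0.31 with a 95% interval of -1.66 to -0.25 (limma, adjusted p = 0.0601). Krt18, which encodes the usual partner chain of keratin 8, gave 252.6 and 347.2 on the AMH arrays, against 205.5 and 339.4 on the control arrays. The groups overlapped, with a change of 0.15 ± 0.25 and an interval of -0.43 to 0.74 (limma, adjusted p = 0.705).

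Krt19 encodes the smallest of these type I keratins, abundant in mesothelium. It gave 895.9 and 1977 on the AMH arrays, against 2443.6 and 1806.8 on the control arrays. AMH replicate 1 was below both control arrays, while AMH replicate 2 lay between them. The change was -0.65 ± 0.32, with an interval of -1.39 to 0.09 (limma, adjusted p = 0.185). Krt7 encodes a type II keratin of simple and ductal epithelia. It gave 139.3 and 333.2 on the AMH arrays, against 270.2 and 201.4 on the control arrays. The AMH arrays lay on either side of the control arrays, and the change was -0.10 ± 0.34, with an interval of -0.89 to 0.69 (limma, adjusted p = 0.866).

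All 4 keratin probe sets were higher on AMH replicate 2 than on AMH replicate 1, by 2.39 times for Krt7, 2.21 times for Krt8, 2.21 times for Krt19 and 1.37 times for Krt18. On the log2 scale, 1.0% of all tested probe sets differed as far in that direction as Krt7 between the AMH arrays, 1.36% as far as Krt8, 1.16% as far as Krt19 and 12.0% as far as Krt18. Between the control arrays the keratins had no common direction, with 2 of 4 higher on replicate 2. Epcam, Cdh1, Upk1b, Msln and the Lrrn4 probe sets differed between the AMH arrays by less than the SD of that difference over all tested probe sets, 0.435. Between the control arrays 5 probe sets differed by more than the corresponding SD of 0.318, namely those of Upk1b (0.91), Krt18 (0.68), Msln (-0.72), Krt19 (-0.43) and Krt7 (-0.40).

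Leaving out AMH replicate 2 gave changes of -1.49 for Krt8 (adjusted p = 0.000314), -1.22 for Krt19 (adjusted p = 0.000872) and -0.68 for Krt7 (adjusted p = 0.0414), all past the threshold. Leaving out AMH replicate 1 gave -0.42, -0.09 and 0.49 for the same genes, with adjusted p of 0.0889, 0.734 and 0.11. With either AMH array left out, more falls were called over all tested probe sets than in the full fit. A fit with 1 AMH array takes its spread from the control arrays and assumes that the lone array varies as they do.

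Marker lists of other cell types also differed between the AMH arrays. The summed intensity of 8 macrophage and leukocyte markers was 759.6 on AMH replicate 1 and 1946 on AMH replicate 2, against 1066 and 997.8 on the control arrays, with Cd163 below the filter. Most of the difference between the AMH arrays came from Lyz2 (133 and 837) and Cd14 (259.2 and 573.8), while Cd68 (135.2 and 141.8) was nearly level and Csf1r (101.9 and 59.1) was lower on AMH replicate 2. That of 8 stromal markers was 14140 and 19210 on the AMH arrays, against 21450 and 20650 on the control arrays. The summed intensity of 8 granulosa markers was 5667 on AMH replicate 1 and 3505 on AMH replicate 2, against 2644 and 2199 on the control arrays. Most of this difference between the AMH arrays came from Inha (1930.6 and 566.2) and Inhbb (1473.9 and 707.5), while Amhr2 (634.2 and 812.6) and Kitlg (196.1 and 336.4) were higher on AMH replicate 2. Sums of 7 endothelial markers were 955.3 and 1124 on the AMH arrays and 932.6 and 972.2 on the control arrays, with Vwf below the filter. Of 7 tested macrophage and leukocyte genes 1 (Cd68) was higher in AMH-treated ovaries, and of 8 granulosa genes 2 (Amhr2 and Inhbb). Of 8 stromal genes 1 (Pdgfra) was higher and 2 (Col1a1 and Col1a2) were lower. Over all named genes, 11% were higher and 11.9% lower. The stromal genes Col3a1, Dcn and Lum were not called, with changes of 0.03, -0.03 and 0.000. Of 6 endothelial genes 0 were called (0 at an unadjusted p under 0.05 with limma). Such a p was found for 4 of 8 granulosa, 4 of 8 stromal and 1 of 7 macrophage and leukocyte genes, beside 36.2% of all tested probe sets. The part of these cells in the keratin values was not tested.

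**Figure D3:**
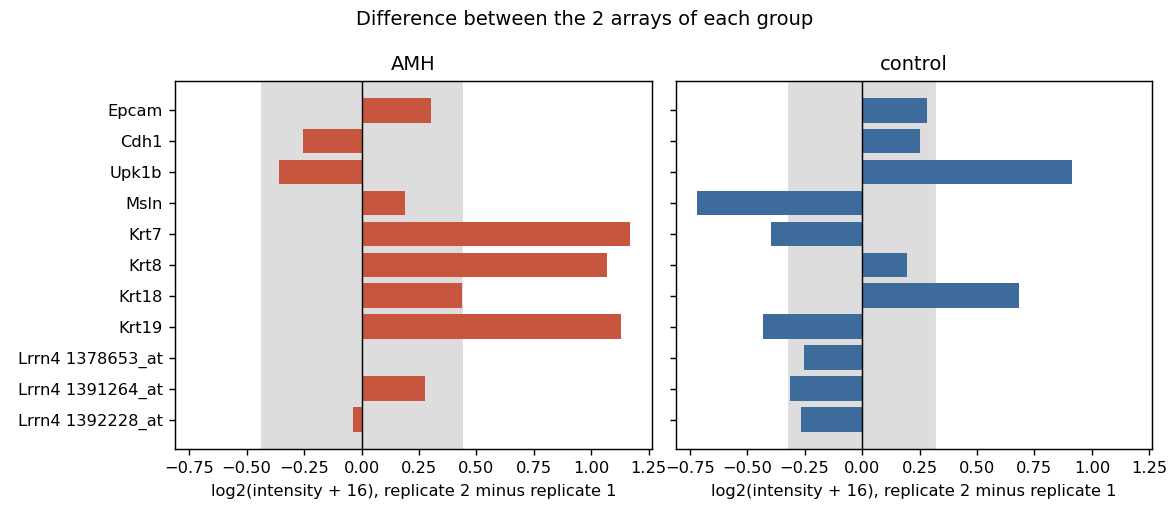
Difference between replicate 2 and replicate 1 (log2(intensity + 16)) for each tested probe set, for the AMH arrays on the left and the control arrays on the right. The grey band spans 1 SD of this difference over all tested probe sets (0.435 for AMH and 0.318 for control), and Krt7, Krt8 and Krt19 extend beyond it on the AMH side, at 1.17, 1.07 and 1.13, as do Upk1b, Msln, Krt18, Krt19 and Krt7 on the control side.

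Related genes outside the 10 were counted at the brightest tested probe set of each, where 11% of 10622 named genes were higher and 11.9% lower in AMH-treated ovaries, with a median change of 0.07. Over 4 lists, 6 of 64 genes were higher and 5 lower. Among 18 other surface epithelial and mesothelial genes, 1 was higher, 2 were lower and 15 were not called, with a median of 0.17. Cd9, a tetraspanin of the cell surface, gave 319 and 219.8 on the AMH arrays, against 786.6 and 745.3 on the control arrays. Both AMH values were under all control values, and Cd9 fell by 1.48 ± 0.20 (limma, adjusted p = 0.00224). Gata4, a transcription factor of gonadal somatic cells, fell by 0.90 ± 0.18 (adjusted p = 0.0122), a call lost without control replicate 1 (adjusted p = 0.123). Its other probe set gave -0.25, and the mean over both did not pass (adjusted p = 0.0955). Aldh1a1, a retinoic acid-synthesising enzyme, rose by 0.765 ± 0.21 (adjusted p = 0.038), a call lost without control replicate 1 (adjusted p = 0.221), without AMH replicate 2 (0.0673), with hybridization control scaling (0.544), with no filter (0.0694) and with no intensity trend (0.0765). Lgr5, a receptor that marks cells of the neonatal ovarian surface in mice, gave 61.5 and 46 on the AMH arrays and 26.5 and 31.8 on the control arrays, and did not pass (0.62 ± 0.25, adjusted p = 0.116).

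Of 8 other keratin genes above the filter 0 were called, and 0 had an unadjusted p under 0.05 with limma, beside 36.2% of all tested probe sets. In the remaining related lists, such a p was found for 7 of 18 surface epithelial and mesothelial genes and 9 of 24 junction genes. It was also found for 7 of 14 epithelial regulators and mesenchymal transition factors. The changes of the 8 keratin genes had a median of 0.01. They were lowest by moderated statistic for Krt17 (-0.37 ± 0.26) and Krt14 (-0.34 ± 0.26), keratins of basal and stratified epithelia. They were highest for Krt15 (0.54 ± 0.26) and Krt10 (0.41 ± 0.28), both of which turned below 0 with hybridization control scaling. A further 8 keratin genes had probe sets but lay below the filter.

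Of 24 junction genes, 3 were higher, 1 was lower and 20 were not called, with a median of -0.05. Ctnnd1 encodes p120 catenin, which binds the tail of E-cadherin and holds it at the membrane. It gave 56.3 and 61.9 on the AMH arrays, against 168.6 and 109.9 on the control arrays, and fell by 1.02 ± 0.24 (limma, adjusted p = 0.0206; 0.208 without control replicate 1). Ctnna1 encodes alpha-catenin, the link between the cadherin complex and actin. It gave 3548.1 and 2846.9 on the AMH arrays, against 1906.4 and 1991.3 on the control arrays, and rose by 0.70 ± 0.15 (adjusted p = 0.0153). This call was lost without control replicate 1 (0.122), without control replicate 2 (0.0777), with hybridization control scaling (0.587) and with no intensity trend (0.053).

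The desmosomal genes Ppl, for periplakin, and Dsc2, for desmocollin 2, rose by 0.81 ± 0.20 (adjusted p = 0.0262) and 0.79 ± 0.23 (adjusted p = 0.04). Both calls were lost without control replicate 1 (0.235 and 0.315) and with hybridization control scaling (0.427 and 0.454), and that of Dsc2 also without AMH replicate 1 (0.0702), with no filter (0.0744) and with no intensity trend (0.056). Dsg2, for desmoglein 2, gave -0.45 ± 0.16 and did not pass (adjusted p = 0.0759). Components of the cadherin complex had opposite signs, with Cdh1 and Ctnnd1 lower and Ctnna1 higher. Ctnnb1, whose product joins E-cadherin to alpha-catenin, gave -0.30 ± 0.135 and did not pass (limma, adjusted p = 0.146).

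Of 14 epithelial regulators and mesenchymal transition factors, 2 were higher, 2 were lower and 10 were not called, with a median of 0.39. Spint2, a membrane inhibitor of serine proteases in epithelia, gave 295 and 239.5 on the AMH arrays, against 785.2 and 680.9 on the control arrays. The groups were far apart, and Spint2 fell by 1.41 ± 0.17 (limma, adjusted p = 0.00172). Esrp1, an epithelial splicing regulator, gave 953.1 and 681 on the AMH arrays, against 1335.9 and 1514.7 on the control arrays. It fell by 0.81 ± 0.185 (adjusted p = 0.0187), a call lost without control replicate 1 (0.053), without control replicate 2 (0.105) and with no intensity trend (0.0514).

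Zeb1 encodes a repressor of E-cadherin transcription that binds the E-box form shown above, though no promoter of Cdh1 itself was listed. It gave 914.3 and 1107.8 on the AMH arrays, against 483.5 and 457.8 on the control arrays. Both AMH arrays were well above both control arrays, and Zeb1 rose by 1.07 ± 0.16 (limma, adjusted p = 0.00363), a call lost with hybridization control scaling (0.53, adjusted p = 0.109). Its paralog Zeb2 gave 151.7 and 219.4 on the AMH arrays and 90.4 and 120.5 on the control arrays, without passing (0.72 ± 0.23, adjusted p = 0.0603). Fn1, the matrix protein fibronectin, rose by 0.97 ± 0.23 (adjusted p = 0.0197), a call lost without control replicate 1 (0.151) and with hybridization control scaling (0.214). Vim, the intermediate filament gene of mesenchymal cells, gave 0.10 ± 0.19 (adjusted p = 0.751), and Snai1, another repressor of E-cadherin, 0.38 ± 0.30 (adjusted p = 0.402). The part of Zeb1 in the values of Cdh1, Epcam or any other gene here was not tested, nor were the cells in which it rose.

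**Figure D4:**
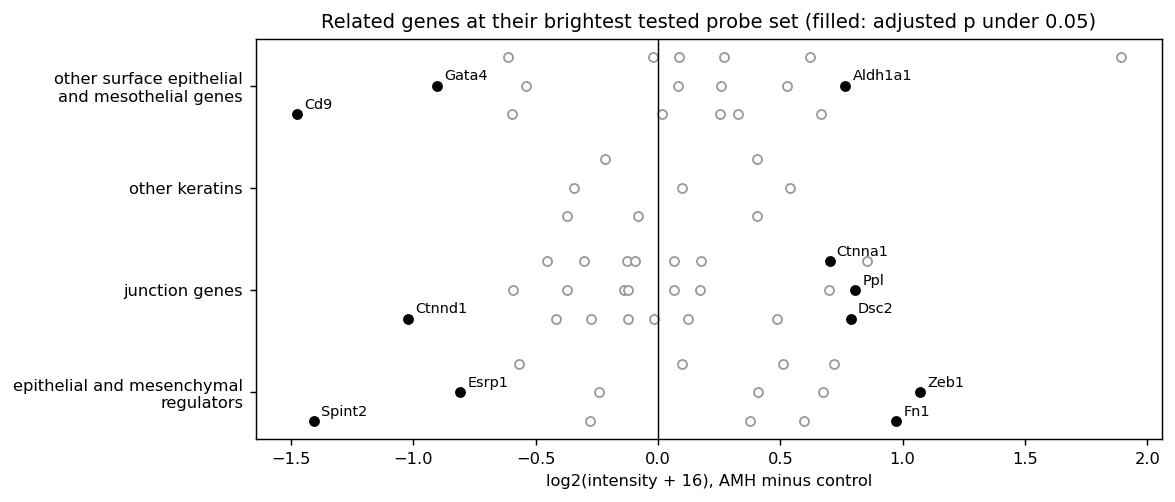
Change with AMH (AMH minus control, log2(intensity + 16)) of the tested genes of 4 related lists, each at its brightest tested probe set, with genes that passed an adjusted p of 0.05 filled and named. The named genes lie on both sides of 0 in 3 lists and the keratin list has none. The open point at 1.89 is Slpi, which did not pass (limma, adjusted p = 0.18). Slpi gave 549.6 and 1302.2 on the AMH arrays and 52.1 and 777.6 on the control arrays, so the groups overlapped and the control arrays lay far apart.

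**Figure D5:**
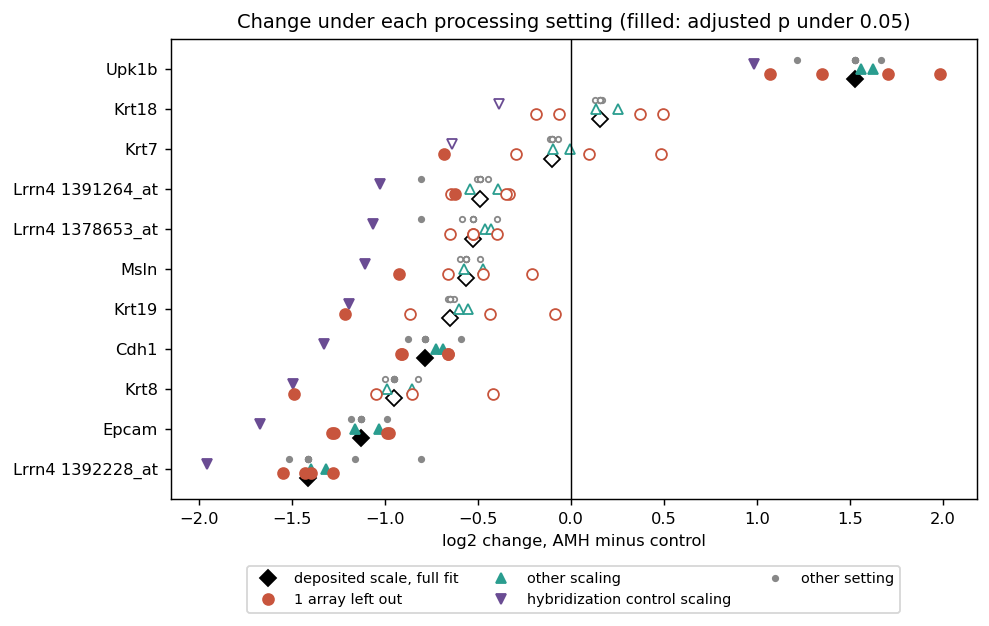
Change with AMH (AMH minus control, log2 scale) of each tested probe set under every processing setting, filled where the adjusted p was under 0.05. Epcam, Upk1b and Lrrn4 1392228_at stay filled throughout, and the points of Krt7, Krt8 and Krt19 with 1 array left out spread widely.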

How the data were processed

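RNA of 4 pools of cultured rat ovaries was measured on 1-colour Affymetrix arrays with biotin label, per the labels' protocols. The table deposited by the authors gives 1 linear intensity per probe set and array. Their mean without the lowest and highest 2 percent was 125.03 on every array, so the authors had scaled them per array to one target. No source used here names the summarising software, and the table holds no detection calls. Read depth does not apply, and the number of arrays limits the precision. The labels call the pools independent. Same-numbered arrays are not known to be paired, and their deviations had a correlation of -0.00082 over probe sets.

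Intensities were turned into log2(intensity + 16), which understates changes of dim probe sets. Affymetrix controls (57 probe sets) were left out, as were the dimmest 40 percent of the rest (below about 27.8). The difference between AMH and control was tested two-sided by limma 3.58.1 under R 4.3.3, using lmFit and eBayes with a trend on intensity, and p-values were adjusted over all 18625 tested probe sets by Benjamini-Hochberg. The fit has 2 residual and 6.33 prior degrees of freedom. In simulated data, 94.9% of changes of 2 and 20.4% of changes of 1 on the log2 scale were called. There, 98 probe sets of 18311 were changed by each size, a far smaller share than the 21.5% called in the real table. The Benjamini-Hochberg cutoff depends on that share, so these percentages do not give the sensitivity in the real data. Alternatives were the added constant, the filter, the scaling, the variance model, a replicate block and leaving out each array.

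Symbols came from the platform annotation (20832 probe sets with 1 symbol, 436 with several and 9831 with none listed), and all 12 probe sets of the 9 measured genes matched RefSeq under the same symbol. Members and lists were chosen with earlier results of these data known. Named genes are the members, the 2 highest and 2 lowest of each related list by moderated statistic and the 5 nearest to Upk1b. Dsc2, Zeb2, Ctnnb1, Vim, Snai1, Slpi and the cell type markers were named after their values were seen.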

Additional observations from a re-analysis of the deposited data

How the results depend on the processing

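The calls of Epcam, Upk1b and Lrrn4 1392228_at held under every alternative run, and Upk1b was the 1 rise in each. The 3 falls among the 11 probe sets became 8 with hybridization control scaling, which lowered all probe sets together, and 2 to 7 with 1 array left out. That scaling gave 101 rises and 6579 falls over all probe sets and 0 rises and 20 falls among the 64 related genes, and turned Krt18 to -0.39, Krt10 to -0.135 and Krt15 to -0.002. With 1 array left out, rises over all probe sets ran from 334 to 2245 and falls from 1047 to 2886, rises among related genes from 1 to 16 and falls from 2 to 8, while Krt7 ran from -0.68 to 0.49 and Krt18 from -0.19 to 0.50. Without a filter 1010 probe sets rose, and without an intensity trend 989 rose over all and 3 among related genes. For results that moved under these settings other than the scaling, the cause was not tested. With the replicate block, 4 of the 11 probe sets fell, Krt8 joining the 3 (-0.95, adjusted p = 0.0274), and 1350 rose and 2216 fell over all probe sets, but the arrays share only a number. With 2 arrays per group, no permutation of arrays can give a small p, so all calls rest on the pooled spread. The 3′/5′ ratio and whatever the digit strings of the chip identifiers mark were addressed by no alternative.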
